A study of Mus musculus with 4 samples.

Results

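The ETS family is a group of transcription factors that share the ETS DNA-binding domain, and 10 of its genes were described here across 4 microarray libraries of mouse BA/F3 cells: Etv6, Fli1, Erg, Spi1, Spib, Ets1, Ets2, Elf1, Elf4 and Gabpa. They were taken by symbol, as every probe set that carried one of these symbols alone, which gave 21 probe sets for 10 of the 18194 genes with such a probe set. BA/F3 is an established cell line that needs interleukin 3 to grow and is taken as a stand-in for early B lymphocytes. Going by the titles, with which source names and genotypes agree, 2 libraries came from cells with an inducible human ETV6-RUNX1 (TEL-AML1) transgene and 2 from BA/F3 control cells without it. All 4 cultures had been given the inducer mifepristone at 32.5 pM for 16 hours, and total RNA was labelled from the 3' end for an expression array. Titles and design text also speak of chromatin immunoprecipitation, but the protocols describe RNA, and the values were read as RNA levels. The free-text description field exchanges the conditions of both replicate 1 libraries: it calls fusion-titled replicate 1 a control and control-titled replicate 1 fusion-expressing. Each comparison was therefore run by title and by description, and libraries are named by their titles. Genes outside the 10 are given in more detail by description. Whether each line is 1 clone, and which promoter drives the transgene, is not given in the sources used here.

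ETS factors bind a short GGAA core through the ETS domain, and members differ in the bases around that core, in their partners and in whether they activate or repress. ETV6 (TEL) is a repressor that also carries a pointed domain, through which it forms oligomers. The ETV6-RUNX1 fusion keeps the pointed domain of ETV6, loses its ETS domain and binds DNA through the Runt domain of RUNX1, which recognises the letters TGTGGT. In blood cells, PU.1 (encoded by Spi1) is known for its role in myeloid and early B cells, FLI1 and ERG for theirs in stem cells and megakaryocytes, and ETS1 for its role in lymphocytes.

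The values are log2 levels per probe set with a shared lowest value of 2.23, and 54.7% to 54.9% of the 45101 probe sets in a library lay within 0.5 of it. The 17720 probe sets with a mean of at least 4 were tested. The line's early B cell label had little marker support: of 11 B-lineage marker genes with a named probe set, Pax5, Ebf1, Vpreb1, Rag1, Rag2, Il7r and Dntt stayed within 0.5 of the lowest value in all libraries, and 1 gene, Cd79b, was tested. Of 12 marker genes of mast cells, basophils and myeloid cells, 6 were tested, while Kit and Elane stayed within 0.5 of the lowest value. All 4 T cell and all 5 fibroblast markers on the array stayed there too. Of 6 megakaryocyte and erythroid markers on the array, 4 were tested, while Hba-a1 and Pf4 stayed within 0.5 of the lowest value.

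Of the 10 ETS genes, 7 had a tested probe set and 3 did not. The tested probe sets numbered 11: 2 each for Etv6, Elf1, Fli1 and Gabpa, and 1 each for Erg, Ets2 and Spi1. Spib, a relative of PU.1 in the B lineage, had 1 probe set, which read 2.23 in all 4 libraries. Elf4, which encodes an activator in lymphoid cells, had 2, which read 2.24 and 2.23 in all 4 libraries. Of the 4 probe sets of Ets1, 2 read 2.23 in every library and another ranged from 2.23 to 2.49. The remaining Ets1 probe set, 1452163_at, read 2.23 and 3.05 in fusion-titled replicates 1 and 2, and 2.58 and 3.56 in control-titled replicates 1 and 2. Ets1 was thus lowest in both replicate 1 libraries, at levels too low to be tested. A reading at the lowest value is only a bound, and a probe set there can miss an expressed gene. The single-symbol probe set of Rps16, a ribosomal protein gene noticed after the values were seen, also read 2.23 in every library, and 1 Erg probe set (1425370_a_at) read 2.24 throughout while the other Erg probe set was bright. Of the other Ets2 probe sets, 1437809_x_at read 2.23 in all libraries and 1447685_x_at, just under the limit with a mean of 3.90, ranged from 3.38 to 4.53.

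The series concerns promoters that the fusion may bind, so the upstream sequences of members are shown for reference; no binding was analysed here. The RefSeq promoter table (GRCm38.p6) held 11 start sites for 7 of the 10 genes, Etv6, Ets2, Elf1, Elf4, Erg, Gabpa and Spib. The 3 genes with a single listed start and tested values are printed, each as the 250 bases before the start, 5' to 3' on the gene's strand, with every GGAA or its complement TTCC in capitals. By description the tested probe sets of Etv6 and Ets2 had higher values and those of Gabpa had not. By title those of Etv6 and Ets2 had slightly lower values, and no difference passed the threshold in either grouping. The Etv6 window is chr6:134035450-134035699 (plus strand), that of Ets2 is chr16:95702157-95702406 (plus strand) and that of Gabpa is chr16:84834874-84835123 (plus strand).
Etv6: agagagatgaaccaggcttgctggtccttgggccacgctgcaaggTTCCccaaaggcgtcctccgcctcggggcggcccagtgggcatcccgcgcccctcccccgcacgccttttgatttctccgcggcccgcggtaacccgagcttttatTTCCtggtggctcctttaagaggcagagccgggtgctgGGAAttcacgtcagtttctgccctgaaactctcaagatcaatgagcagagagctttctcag
Ets2: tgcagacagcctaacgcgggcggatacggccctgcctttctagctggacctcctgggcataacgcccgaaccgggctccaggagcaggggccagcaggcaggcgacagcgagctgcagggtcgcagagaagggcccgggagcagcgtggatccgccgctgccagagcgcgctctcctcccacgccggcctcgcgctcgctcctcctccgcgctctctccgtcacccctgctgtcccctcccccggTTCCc
Gabpa: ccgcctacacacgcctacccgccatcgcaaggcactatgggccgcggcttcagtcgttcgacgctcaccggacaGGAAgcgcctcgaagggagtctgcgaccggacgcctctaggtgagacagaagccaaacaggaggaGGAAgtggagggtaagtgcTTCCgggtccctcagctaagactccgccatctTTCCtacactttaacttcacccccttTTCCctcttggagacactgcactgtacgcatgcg
The letters GGAA, searched on both strands, occurred 3 times in the Etv6 window, 1 time in that of Ets2 and 5 times in that of Gabpa, and 93.4% of all 32851 windows of this length held at least 1. The longer ETS letters CCGGAA, which contain GGAA, occurred in 1 of the 11 member windows, that of Gabpa, against 12.0% of all windows. The RUNX letters TGTGGT occurred on either strand in 0 of the 11 member windows, against 14.0% of all windows. These counts describe letters in these windows only.

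Etv6, the mouse gene of the factor whose human counterpart is in the fusion, was measured by a pair of probe sets that gave the same order of libraries apart from a tie. The brighter, 1434880_at, read 9.58 and 10.15 in fusion-titled replicates 1 and 2, and 10.05 and 9.92 in control-titled replicates 1 and 2. Fusion-titled libraries were both the lowest and the highest, so the title groups overlapped. Both libraries described as fusion-expressing lay above both described as control. By title the log2 difference, fusion minus control, was -0.12 (SE 0.30, 95% interval -0.98 to 0.74, limma adjusted p = 1). By description it was 0.35 (SE 0.18, 95% interval -0.17 to 0.87, limma adjusted p = 0.39). The dimmer probe set, 1423401_at, read 5.79 and 6.67 in the fusion-titled libraries and an identical 6.36 in both control-titled libraries. Its difference was -0.13 (SE 0.39) by title, against 0.44 (SE 0.29) by description. Without fusion-titled replicate 1 the description differences of Etv6 were 0.18 at the brighter and 0.15 at the dimmer probe set. The transgene is human and where these mouse probe sets lie relative to the break in ETV6 is not known here, so Etv6 does not check the labels.

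**Figure D1:**
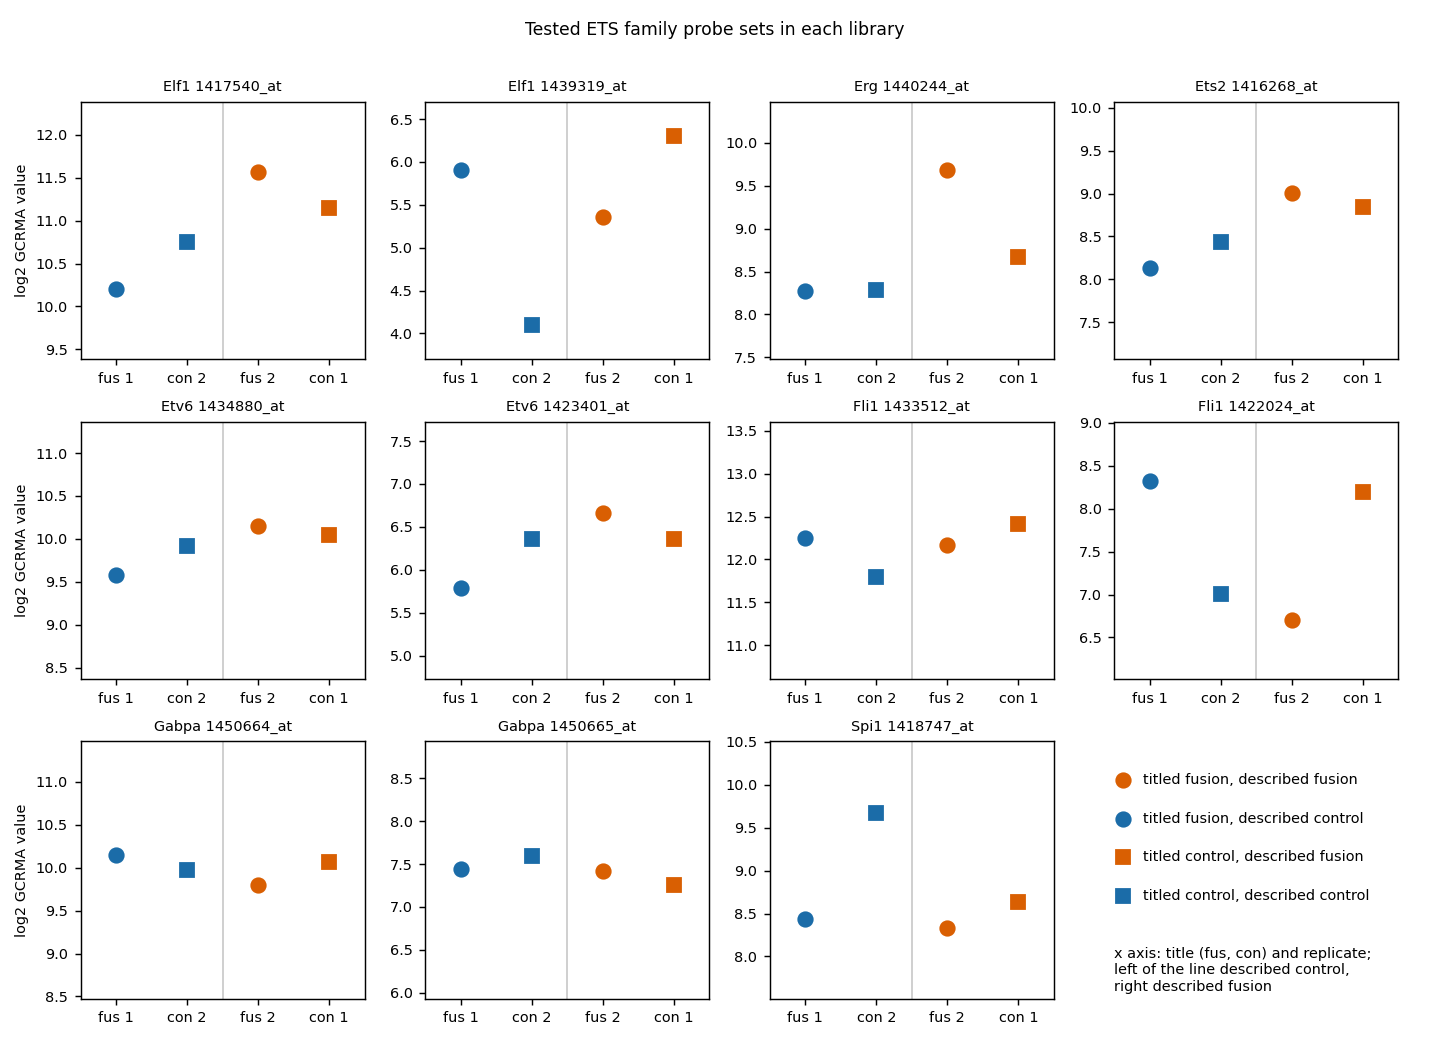
Each panel plots 1 tested ETS probe set, with the log2 GCRMA value on a vertical axis that spans 3 units and 1 point per library; circles are titled fusion, squares titled control, orange described fusion and blue described control. In the upper Elf1, Erg, Ets2 and brighter Etv6 panels both orange points lie above both blue points, while Spi1 is set apart by control-titled replicate 2 alone at 9.68.

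Erg, Ets2 and the brighter Elf1 probe set were higher in both libraries described as fusion-expressing than in both described as control, and none of them passed the threshold. Erg, which encodes a factor of blood stem cells and megakaryocytes, read 8.27 and 9.68 in fusion-titled replicates 1 and 2, and 8.66 and 8.28 in control-titled replicates 1 and 2. Fusion-titled replicate 2 stood highest, and the libraries described as control were nearly equal. The title difference of Erg was 0.51 (SE 0.58). By description it was 0.90 (SE 0.40, limma adjusted p = 0.33), which is 1.86-fold. With fusion-titled replicate 2 left out, the description difference of Erg was 0.39. Ets2, a factor downstream of RAS and MAP kinase signals, read 8.14 and 9.00 in the fusion-titled libraries and 8.84 and 8.44 in the control-titled ones. The title groups of Ets2 overlapped and the description groups did not. The difference was -0.07 (SE 0.42) by title, against 0.63 (SE 0.20, 95% interval 0.07 to 1.19, limma adjusted p = 0.22) by description.

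Elf1, which encodes an activator in lymphoid and myeloid cells, read 10.20 and 11.57 at its brighter probe set (1417540_at) in fusion-titled replicates 1 and 2, and 11.15 and 10.75 in control-titled replicates 1 and 2. The description groups of this probe set did not overlap, and the difference was 0.88 (SE 0.28, 95% interval 0.10 to 1.67, limma adjusted p = 0.22), against -0.06 (SE 0.55) by title. The dimmer Elf1 probe set (1439319_at) read 5.90 and 5.36 in the fusion-titled libraries and 6.30 and 4.10 in the control-titled ones. It had the same direction by description, with 0.83 (SE 0.76), but its groups overlapped because both replicate 1 libraries were the highest. Without control-titled replicate 2 its description difference was -0.07.

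In the same libraries, for markers of mast cells, basophils and myeloid cells, the mean log2 level over 12 genes was 5.25 and 5.70 in the fusion-described libraries, and 3.72 and 4.69 in those described as control. The log2 of their summed signal overlapped, at 12.63 and 13.53 against 12.74 and 12.71. The B-lineage mean ran from 3.02 to 3.15 in the fusion-described and from 2.92 to 2.97 in the control-described libraries, while its summed signal overlapped, at 8.71 and 8.98 against 8.54 and 8.81. The megakaryocyte and erythroid mean overlapped too, at 5.74 to 5.82 against 5.69 to 6.21. The part of such markers in the ETS differences was not tested. In bulk RNA, fewer cells of a type and less RNA per cell cannot be told apart.

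Fli1 had probe sets of opposite direction. The gene, which encodes a megakaryocyte and stem cell factor related to ERG, read 12.25 and 12.17 at its brighter probe set (1433512_at) in fusion-titled replicates 1 and 2, and 12.41 and 11.80 in control-titled replicates 1 and 2. Its dimmer probe set (1422024_at) read 8.33 and 6.71 in the fusion-titled libraries and 8.19 and 7.01 in the control-titled ones. The dimmer probe set was high in both replicate 1 libraries and low in both replicate 2 libraries, a mean difference of -1.40 for replicate 2 minus replicate 1. The 2 Fli1 probe sets had opposite signs in both groupings: 0.10 (SE 0.27) and -0.08 (SE 0.77) by title, and 0.26 (SE 0.21) and -0.21 (SE 0.74) by description, brighter first. No direction can be given for Fli1.

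Gabpa encodes the DNA-binding subunit of GABP, a regulator of mitochondrial and housekeeping genes, and had the smallest ranges of the 11 tested probe sets. Its probe set 1450664_at read 10.15 and 9.80 in fusion-titled replicates 1 and 2, and 10.07 and 9.97 in control-titled replicates 1 and 2, a range of 0.35. Its probe set 1450665_at read 7.44 and 7.42 in the fusion-titled libraries and 7.26 and 7.60 in the control-titled ones, a range of 0.34. By description the differences were -0.12 (SE 0.18, 95% interval -0.62 to 0.38) and -0.18 (SE 0.19, 95% interval -0.70 to 0.35). By title they were -0.05 (SE 0.25) and 0.0014 (SE 0.27). A 2-fold change in either direction lies outside each of these description intervals.

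Spi1, which encodes PU.1, was the 1 member whose title groups did not overlap. It read 8.44 and 8.34 in fusion-titled replicates 1 and 2, and 8.63 and 9.68 in control-titled replicates 1 and 2. Control-titled replicate 2 stood alone, and the other 3 libraries lay within 8.34 to 8.63. Spi1 differed by title by -0.77 (SE 0.45, 95% interval -2.05 to 0.51, limma adjusted p = 1). The description difference was -0.57 (SE 0.49, limma adjusted p = 0.58). Without control-titled replicate 2 the differences were -0.25 by title and 0.05 by description.

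**Figure D2:**
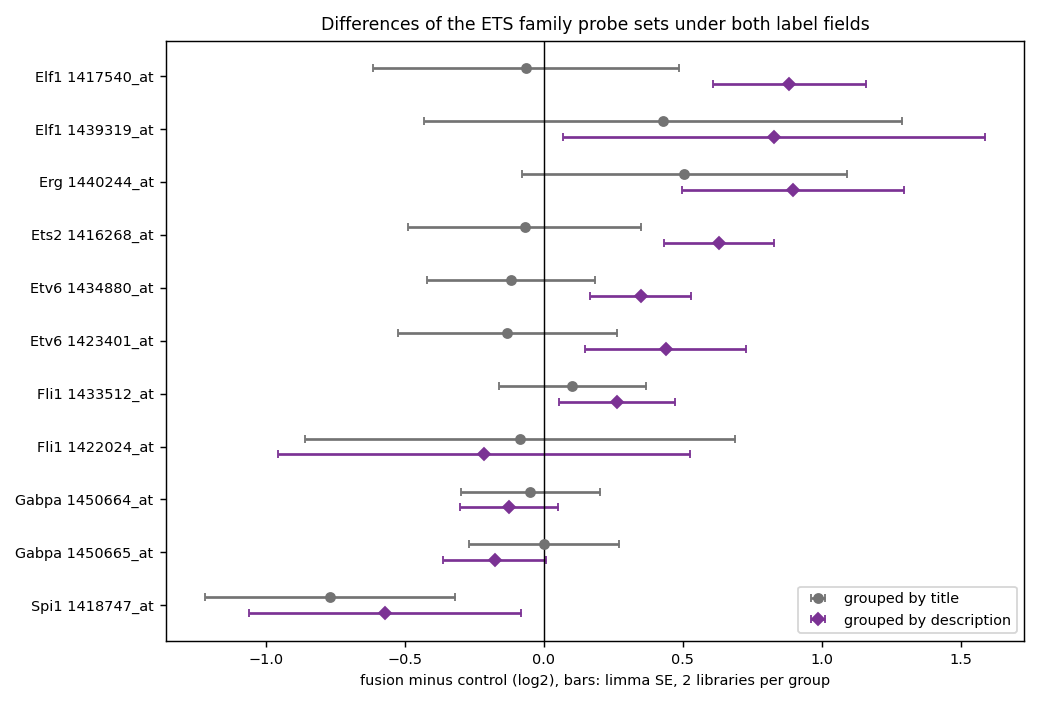
Fusion minus control on the log2 scale for the 11 tested ETS probe sets, grouped by title (grey circles) and by description (purple diamonds), with limma standard errors and 2 libraries per group. The title differences run from -0.77 for Spi1 to 0.51 for Erg, and the description differences from -0.57 for Spi1 to 0.90 for Erg.

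No ETS probe set passed the threshold in either grouping. By title, 0 of the 11 passed an adjusted p of 0.05 in limma, as did 0% of all 17720 tested probe sets. At an unadjusted p under 0.05 there were 0 members against 0.282% of all. By description, 0 members passed against 0.0113% of all, and 2 members had an unadjusted p under 0.05, Elf1 (1417540_at) and Ets2, a share of 18.2% against 19.7% of all. Description groups did not overlap for 5 of 11, or 45.5%, against 50.4% of all. Of these, 4 were higher, or 36.4% of the 11 (25.3% of all were), and 1 was lower, Gabpa 1450665_at, or 9.1% (25.1% of all). Title groups did not overlap for 1 of 11, against 10.7% of all. Without regard to direction, the members' shares therefore lay near those of the whole array. Split by direction they lay further from them, each on few probe sets. Probe sets of 1 gene are not independent of each other.

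The median difference of the 11 was -0.06 by title and 0.35 by description, beside -0.01 over all tested probe sets in both groupings. In 10 of the 11 the difference by description had the same sign in replicate 1 as in replicate 2, compared with 72.9% of all tested probe sets; Spi1 was the exception. By title the signs matched for 1 of 11, Spi1, compared with 24.7% of all. This count mirrors the first, because the groupings differ only in the sign of the replicate 1 difference.

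All labels agree only for the replicate 2 libraries, and with 1 library each there is no replicate check. In that pair 7 of 11 ETS probe sets were higher in the fusion library, compared with 47.6% of all, and 3 differed at least 2-fold, compared with 11.4%. These 3 were Erg, higher by 1.40, the dimmer Elf1 probe set, higher by 1.26, and Spi1 at -1.34. Etv6 differed by 0.23 and 0.31 there, brighter probe set first, the brighter Elf1 probe set by 0.82 and Ets2 by 0.56.

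Each probe set's spread over the 4 libraries divides exactly into the part along the title, the part along the description field and the part between replicate numbers. The description part was the largest for 6 of the 11 ETS probe sets (52.5% of all tested), the replicate part for 4 (33.7% of all) and the title part for 1, Spi1 (13.7% of all). For the dimmer Etv6 probe set, counted among the 6, the description and replicate parts were equal at 47.9% because of its tied libraries. Ets2 had 87.1% and the brighter Elf1 probe set 76.6% along the description field, while the dimmer Fli1 probe set had 97.4% between replicate numbers. Summed over the 11, 52.7% lay between replicate numbers and 36.0% along the description field, against 36.5% and 53.9% over all tested probe sets. That sum rests largely on the dimmer probe sets of Fli1 and Elf1, whose mean differences, replicate 2 minus replicate 1, were -1.40 and -1.38.

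**Figure D3:**
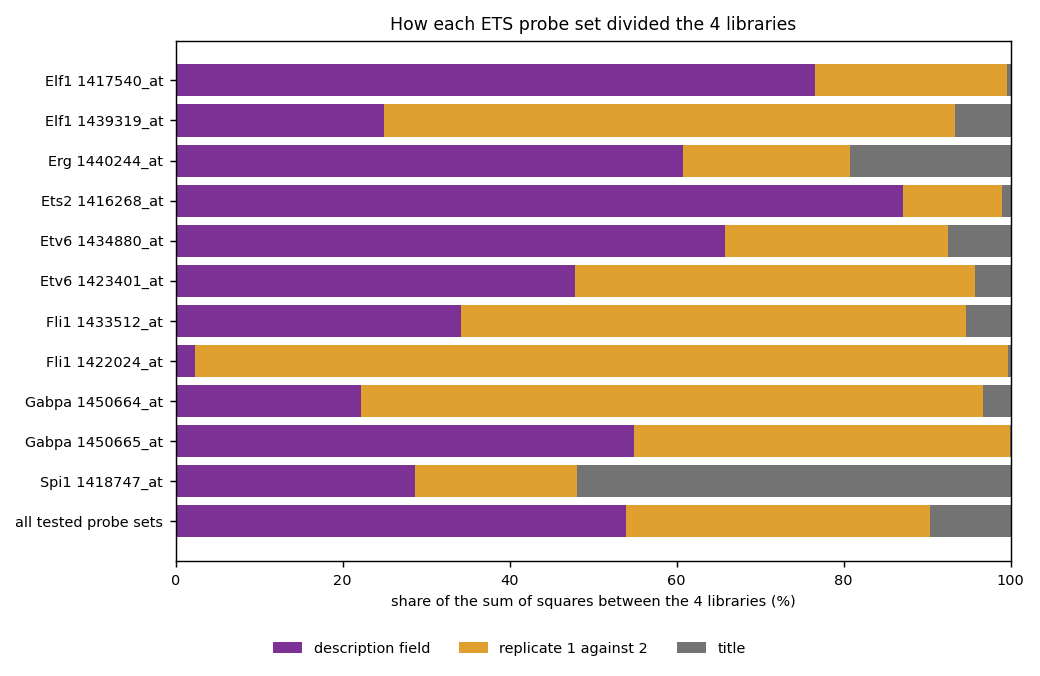
Stacked bars give, for each tested ETS probe set and for all tested probe sets together, the percent of the sum of squares between the 4 libraries that lay along the description field (purple), between replicate 1 and replicate 2 (yellow) and along the title (grey). Ets2 reaches 87.1% purple, the dimmer Fli1 probe set 97.4% yellow, and Spi1 is the 1 bar with most grey, at 51.9%.

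The other ETS genes were taken from a list of 16, of which 14 had a named probe set and 7 were tested at their brightest probe set. The other 7, Elf3, Elf5, Etv2, Etv4, Ehf, Spdef and Spic, stayed within 0.5 of the lowest value in all libraries. By description 5 of the 7 tested genes were higher and 2 lower, with a median of 0.51, beside 51.5% higher, 48.4% lower and a median of 0.01 among all 8892 tested genes. The groups failed to overlap in 4, all higher, against 30.3% of all genes in that direction, and 3 had an unadjusted p under 0.05 against 23.3%. None passed the threshold (lowest limma adjusted p = 0.14), as 0% of the probe sets that stand for the 8892 genes did.

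Elf2, a close relative of Elf1, read 10.18 and 11.02 in fusion-titled replicates 1 and 2, and 11.08 and 9.85 in control-titled replicates 1 and 2, a description difference of 1.04 (SE 0.17). Its next probe set (1428045_a_at) differed by only 0.55 by description and by 1.34 by title. Etv5, an activator of the PEA3 group, differed by 1.05 (SE 0.31) by description, with 10.14 and 11.41 in the fusion-titled libraries and 10.69 and 9.85 in the control-titled ones; its next probe set (1450082_s_at) differed by 0.36. Etv3, a repressor, differed by 0.78 (SE 0.17) and by 0.92 at its next probe set. Elk3, a ternary complex factor that partners with SRF, differed by 0.51 (SE 0.18), while its next probe set had -0.14. Both libraries described as fusion-expressing were the highest for each of the 4 genes at the brightest probe set. These genes were picked from the 7 for the smallest description p, so this order follows in part from the choice. By title Elf2, Etv5, Etv3 and Elk3 differed there by 0.14, 0.51, 0.20 and 0.23. By title the same 7 genes had a median of 0.14 with 1 that did not overlap, beside 9.67% of all genes, and the lowest adjusted p was 1.

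**Figure D4:**
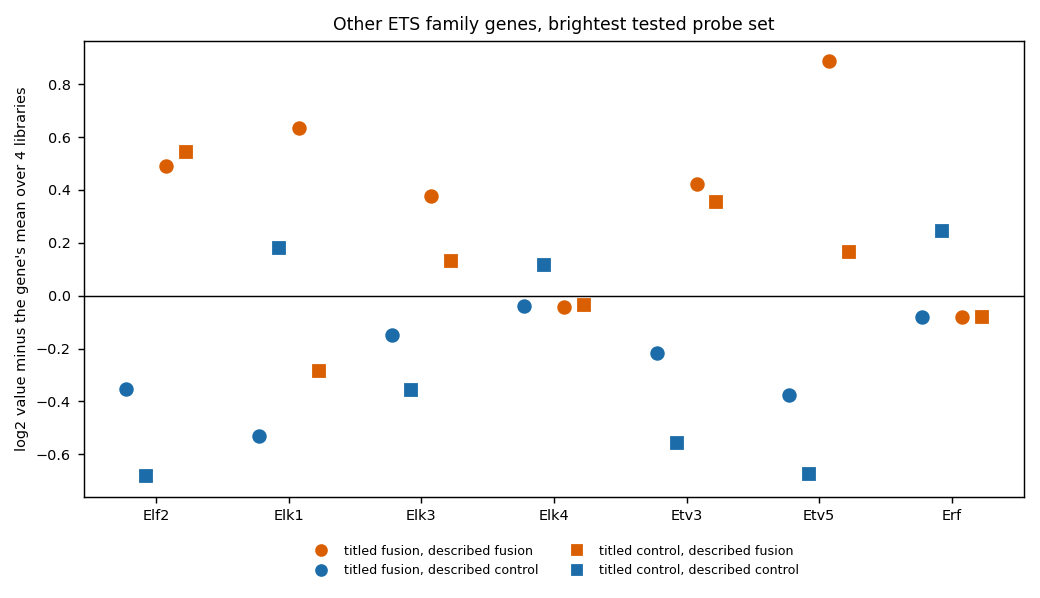
For the 7 tested ETS genes outside the 10, the brightest probe set's log2 value in each library minus its mean over the 4 libraries; circles are titled fusion, squares titled control, orange described fusion and blue described control. For Elf2, Elk3, Etv3 and Etv5 both orange points lie above both blue points, and for Elk1, Elk4 and Erf they do not.

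Partners and cofactors of ETS proteins were counted next. Of 22 listed genes, 15 were tested; by description 10 were higher and 5 lower, with a median of 0.20. The groups did not overlap in 5 of 15, all higher, beside 30.3% of all genes in that direction, and 2 of 15 had an unadjusted p under 0.05, beside 23.3%. Tal1, Lyl1, Crebbp and Runx1 are named because they had the smallest description p of this list. Tal1 and Lyl1, which encode helix-loop-helix factors that share blood stem cell enhancers with ERG and FLI1, differed by 1.39 (SE 0.15) and 0.74 (SE 0.15). Gata2, Gata1 and Lmo2, from the same list, differed by description by 0.20 (SE 0.31), 0.19 (SE 0.41) and -0.37 (SE 0.54), with overlapping groups. Crebbp, a histone acetyltransferase recruited by ETS1 and other factors, differed by 0.50 (SE 0.24). Runx1, a partner of ETS1 on composite sites and whose human counterpart supplies the other part of the fusion, differed by 0.90 (SE 0.38). That value is from the brightest tested of 6 Runx1 probe sets, and the others are not given here. Whether this mouse probe set also reads the human transgene is not known here, so Runx1 does not check the labels either. With single libraries left out, Runx1 ranged from 0.45 (without fusion-titled replicate 1) to 1.36 and Crebbp from 0.26 (without control-titled replicate 2) to 0.74. The lowest limma adjusted p in this list was 0.13, so no partner passed. By title Tal1, Lyl1, Runx1 and Crebbp differed by -0.25, -0.10, -0.32 and 0.11. By title 4 of the 15 were higher and 11 lower, with a median of -0.20 beside -0.02 over all tested genes. The title groups did not overlap in 3 of 15, Cbfb, Gata1 and Lmo2, all lower. Of all genes 9.67% did not overlap by title, in either direction.

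Genes known to depend on PU.1 or SPI-B were tested for 9 of 18, by description 6 higher and 3 lower with a median of 0.57. Of the 9, 3 higher and 1 lower had an unadjusted p under 0.05, beside 23.3% of all genes, and the lowest limma adjusted p was 0.13. Fcgr3, an IgG receptor gene, differed by 3.79 (SE 0.48), reading 4.37 and 7.56 in fusion-titled replicates 1 and 2, and 8.78 and 4.39 in control-titled replicates 1 and 2. Ncf4 and Ncf1, both of the phagocyte oxidase, had opposite signs, with 0.74 (SE 0.19) and -1.54 (SE 0.40). Tyrobp, a signalling adaptor, differed by 0.61 (SE 0.21). By title Fcgr3, Ncf4, Ncf1 and Tyrobp differed by -0.62, -0.17, -0.22 and -0.29. In control-titled replicate 2, the library in which Spi1 itself was highest, Fcgr3 and Ncf4 were lowest or nearly lowest, while Ncf1, and Fcgr2b and Mpo, which were chosen after their values were seen, were highest. By title 8 of the 9 were lower, with a median of -0.29. Fcgr2b, an inhibitory IgG receptor gene, differed by title by -1.32 (SE 0.44), with an unadjusted p of 0.044 in limma and an adjusted p of 1. It was the 1 gene of the 9 with an unadjusted p under 0.05 by title, beside 0.225% of all genes, and the 1 whose title groups did not overlap, beside 9.67%.

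Of the FLI1, ERG and ETS1 target list, 3 of the 7 genes on the array were tested and none had an unadjusted p under 0.05 by description. Bcl2, the survival gene, differed by -0.77 (SE 0.50). It had -0.32 and -0.27 without fusion-titled replicates 1 and 2, and -1.27 and -1.21 without control-titled replicates 1 and 2. The other Bcl2 probe sets differed by description by -0.81, -1.15, -1.13 and -1.11. Pecam1, an adhesion receptor, differed by 0.43 (SE 0.44) and Itga2b, the platelet integrin chain, by 0.25 (SE 0.63). Of the GABP target list, 9 of 10 were tested, 4 higher and 5 lower by description with a median of -0.08. Only Tfb2m, a mitochondrial transcription factor, had an unadjusted p under 0.05, at -0.99 (SE 0.22), which is 1 of 9 beside 23.3% of all genes. The groups did not overlap in 2 higher and 2 lower genes, beside 30.3% and 25.6% of all genes. Tfam, which packages mitochondrial DNA, differed by -0.33 (SE 0.13), Skp2, a ubiquitin ligase subunit, by 0.34 (SE 0.12) and Atp5b by -0.15 (SE 0.12). The lowest limma adjusted p by description was 0.47 in the first list and 0.17 in the GABP list. By title Bcl2, Pecam1 and Itga2b differed by -0.06, 0.30 and 0.10. The GABP genes had a title median of -0.01, with 4 higher and 5 lower. Their title groups did not overlap in 1 of 9, beside 9.67% of all genes. Tfb2m, Tfam, Skp2 and Atp5b differed by title by 0.05, 0.03, -0.01 and -0.11.

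The genes whose 4 centred log2 values lay closest to the brighter Etv6 probe set were Map4, Cmc2 and Ap4m1, at Euclidean distances of 0.052, 0.052 and 0.053. For the dimmer Elf1 probe set, which had the widest range of the 11 at 2.21, they were Slc16a4 at 0.18, Clec2i at 0.35 and Slc2a6 at 0.43. With 4 libraries such likeness is a description only.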

How the data were processed

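RNA was measured on a 3' expression array in 4 libraries. The deposited table holds log2 values per probe set. The authors used GCRMA 2.28.0 to make them (named in the submitters' processing notes), and the log2 scale was inferred from the range of values. No label or header gives filters, batch steps, scan dates or the authors' test. GCRMA pulls low signals to a floor, so differences at or near the lowest value are compressed.

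All 64 control probe sets were left out, and probe sets with a mean of at least 4 over the 4 libraries were tested (17720). Names came from the platform annotation, with 34958 probe sets of 1 symbol, 932 of several and 9211 of none; Entrez identifiers changed 0 names. Groups of 2 were compared by limma 3.58.1 under R 4.3.3, with lmFit and a trended eBayes, two-sided, Benjamini-Hochberg adjusted over all tested probe sets, threshold 0.05, with 2 residual degrees of freedom. The fit was run on simulated libraries with independent noise and planted changes, which checked only that the mean estimates came near those changes. Such libraries lack the spread that probe sets share here. Lists are described by counts and medians at each gene's brightest tested probe set.

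The members and lists were chosen with earlier results of these data known. All member probe sets are given; from each list up to 4 genes with the smallest description p were named, and 3 neighbours for the widest-ranging member probe set and for the brighter Etv6 probe set. The labels do not say in what way replicates were independent, so the p-values cover only the spread among these libraries, which may be technical. The alternatives tried were other filters, no trend, 2 scalings, a replicate block, leaving out each library, the median over a gene's probe sets and fewer cross-hybridising probe sets.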

Additional observations from a re-analysis of the deposited data

How the results depend on the processing

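No ETS member, other ETS gene, partner or target passed the threshold in limma in either grouping under the other filters, scalings, variance prior, replicate block, libraries left out or medians over probe sets; leaving out probe sets by ID ending was run for the 10 members only. Over all probe sets, 2 passed by description against 0 by title; by description 0 passed without the filter, 14 with quantile normalization, 10 with median centring and 0 with each library left out (0 to 0). Same-numbered libraries are not known to be paired. With the replicate block 0 passed by description, and limma gave Elf1 1417540_at an adjusted p of 0.062 and Ets2 of 0.092. The correlation of same-numbered deviations was 0.59 by description and -0.20 by title. It largely restates the division of the spread given above, so it does not settle the pairing. With a crossed pairing, added after seeing the data and run by title only, 0 passed. Apart from leaving out a library, 254 of 254 values of members and named genes kept their direction. Only the 2 scalings could change a direction, as the filters, variance prior and blocks leave each difference as it is. With any 1 library left out, 7 of 11 member probe sets kept their direction by description and 1 by title. By title the ranges that crossed 0 were -0.75 to 0.62 for Elf1 1417540_at, -0.67 to 1.53 for Elf1 1439319_at, -0.20 to 1.21 for Erg, -0.50 to 0.36 for Ets2, -0.40 to 0.17 for Etv6 1434880_at, -0.57 to 0.31 for Etv6 1423401_at, -0.20 to 0.41 for Fli1 1433512_at, -0.89 to 0.72 for Fli1 1422024_at, -0.22 to 0.13 for Gabpa 1450664_at and -0.17 to 0.17 for Gabpa 1450665_at. By description they were -0.073 to 1.73 for Elf1 1439319_at, -0.96 to 0.53 for Fli1 1422024_at, -0.26 to 0.014 for Gabpa 1450664_at, -1.19 to 0.049 for Spi1, -0.40 to 0.89 for Itga2b and -0.094 to 0.95 for Pecam1. The cause was not tested. The number of arrays, and for Ets1, Spib and Elf4 a signal at or near the lowest value, limit the precision.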

Other observations

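Kat5 and Btk, from the partner and PU.1 target lists, separated the libraries by replicate number; both were chosen with their values in view. Kat5, which encodes the acetyltransferase TIP60, read 5.78 and 8.82 in fusion-titled replicates 1 and 2, and 5.96 and 8.82 in control-titled replicates 1 and 2. Its dimmer probe set read 4.79 and 7.64, and 5.01 and 7.61, in the same order. Both Kat5 probe sets were thus higher in both replicate 2 libraries, by 2.95 and 2.72 on average. Btk, the Bruton tyrosine kinase gene, read 6.21 and 9.23 in the fusion-titled libraries and 6.73 and 8.60 in the control-titled ones, a mean difference of 2.44. Of the tested member probe sets, the dimmer ones of Fli1 and Elf1 also divided the libraries by replicate number. Their mean differences, replicate 2 minus replicate 1, were -1.40 and -1.38. The brighter Fli1 probe set and Gabpa 1450664_at did so by -0.35 and -0.23. Ets1 1452163_at was higher in both replicate 2 libraries, but it was untested and read near the lowest value, from 2.23 to 3.56.

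All 5 probe sets of Bcl2 were highest in fusion-titled replicate 1 and lowest in fusion-titled replicate 2, the libraries that the title places together. The brightest read 12.68 and 10.97 in these, and 11.97 and 11.79 in control-titled replicates 1 and 2.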
